A study of Mus musculus with 2 samples.

Results

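The mRNA of 36 nuclear receptor genes was measured across the cell types of mouse epididymal white adipose tissue (WAT), the fat depot beside the testis. The genes were taken by symbol from a list of thyroid hormone, retinoid, fatty acid, sterol, steroid and orphan receptors, and 36 of 36 symbols were found among the 32285 genes counted. The list was not built from these measurements, and it does not hold the whole receptor family.

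Single nucleus RNA sequencing (snRNA-seq) was run on 2 libraries, 1 per condition. C57BL/6 N male mice, 8 weeks old at the start, had 6 weeks of high-fat diet (HF) and stayed on it for 8 more weeks, during which they received 3 intraperitoneal injections per week, of PBS in the control group (HF-PBS) or of homoharringtonine in the treated group (HF-HHT). Homoharringtonine (HHT) comes from the plum yew and stops ribosomes from making protein. The diet and the injections were thus common to both groups, and each library held nuclei of frozen tissue pooled from 3 mice, stained with DAPI and flow-sorted before capture in the 10x 3′ v3.1 assay. With 1 library per condition there was no replicate check, and no p-value is given.

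Nuclear receptors are DNA-binding transcription factors, many of which are switched by small lipid-soluble ligands. Without ligand, several of them sit on their sites with corepressors, and ligand binding exchanges these for coactivators. Many pair with a retinoid X receptor (RXR) and bind repeats of the hexamer AGGTCA. In fat, PPARγ drives adipocyte differentiation, and the thyroid hormone, retinoic acid, liver X (LXR) and mineralocorticoid receptors adjust lipid turnover and inflammation.

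The HF-PBS library held 76197757 unique molecular identifiers (UMIs) and the HF-HHT library 73313558, of which 6657 and 6440 nuclei were kept, with medians of 4304 and 3972.5 UMIs. The kept nuclei shared 13 barcodes between the libraries, against 6.3 given by the product of their numbers. Clusters were built without the 36 receptors and without the companion genes described further on, and they were named from marker lists. The HF-PBS and HF-HHT libraries held 146 and 842 adipocyte-like nuclei, 756 and 674 adipocyte precursor cell (APC)-like nuclei, 3593 and 2235 macrophage-like nuclei, 667 and 541 T and NK cell-like nuclei, 740 and 48 B cell-like nuclei, 99 and 400 endothelial-like nuclei, and 159 and 312 mesothelial-like nuclei. The macrophage class was made of clusters 0 and 1, with 7 and 8 of the 8 markers found, and each other class had 8 of 8. A duct epithelium-like cluster held 685 HF-HHT nuclei and 0 of 6657 HF-PBS nuclei (exact upper limit 0.0554%), and its marker list was written with its leading genes known. That cluster stood apart as 1 library, so its receptor levels are given with no comparison. RNA outside nuclei was measured in empty droplets and is called free RNA here. If it entered every droplet as the same mix, it could supply at most 3.09% to 19.9% of the UMIs of a class. The highest bound was that of HF-PBS T and NK cells. That condition was not tested, and 6 erythroid markers exceeded the bound in every HF-HHT class. In HF-HHT B cells, with a bound of 16.75%, they summed to 692.6 CPM, beside 1192.5 CPM in free RNA. Levels left after subtraction may thus still hold free RNA.

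Levels are given as CPM, the UMIs of a gene summed over the nuclei of a class and scaled to a common total of UMIs per class. Since the RNA is nuclear and the genes run from 4.3 kb (Nr1h2) to 734.5 kb (Rora), CPM was set side by side between classes and libraries and never between genes. A gene counted as measured in a class with at least 20 UMIs over both libraries. A receptor is called higher or lower where the HF-HHT level differed at least 1.5-fold from the HF-PBS level. That limit is one of size and involves no test. The 95% intervals of log2 ratios are exact binomial intervals of both counts, and they cover counting error, leaving out any difference between mice or pools. Pairs of values give HF-PBS first and HF-HHT second.

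The hexamer bound by many of these proteins also lies before some annotated starts of the receptor genes themselves. In RefSeq promoters on GRCm38.p6, the 250 bases before each start were searched for AGGTCA on both strands, so that TGACCT was counted too. It was found in 14% of 32851 promoters of all genes and in 9 of 56 promoters (16.1%) of the 35 receptor genes in that table, which does not hold Thra. The windows of 4 receptors described below are shown here on the strand of each gene, with the hexamer in capitals. Rxra and Nr6a1 have 2 matches each, of which the one nearer the start is shown, and the 2 matches of Pparg, which overlapped annotated exons, are left out. The Thrb window is chr14:17660764-17660793, that of Rxra chr2:27709232-27709261, that of Nr1h4 chr10:89506855-89506884 and that of Nr6a1 chr2:38784543-38784572, the latter 2 on the minus strand, and these 4 windows did not overlap an annotated exon. All 4 windows lie inside the annotated bounds of their genes, so they precede internal starts. Thrb begins at 17660261 and Rxra at 27676440, and on the minus strand Nr1h4 begins at 89533585 and Nr6a1 at 38927688. A match is only these letters, and binding was not measured.
Thrb: aggagagttgacAGGTCAagggaatagggc
Rxra: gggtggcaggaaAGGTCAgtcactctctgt
Nr1h4: ccgtgtggcattTGACCTccagccagtctt
Nr6a1: cggcttgtaaacTGACCTgtgaggatgacg

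Of the 28 receptors with enough UMIs in both libraries to be ranked, 20 had their highest CPM in the same class of the 7 in HF-PBS and HF-HHT, beside 53.3% of the 12959 genes ranked by the same rule. In both libraries the adipocyte class was the highest for 8 of them (Thrb, Ppara, Ppard, Pparg, Nr1h3, Vdr, Rxra and Esr1). Endothelial nuclei were the highest for 3 (Rarb, Nr2f2 and Nr3c2), mesothelial nuclei for 3 (Nr1h4, Nr2f6 and Nr6a1), APCs for 2 (Rora and Nr2f1), T and NK cells for 2 (Nr2c2 and Nr4a2), macrophages for 1 (Nr2c1) and B cells for 1 (Rxrb). The place of Rxrb in B cells rested on 24 and 3 UMIs. Some of these orders were narrow: Ppard in HF-HHT adipocytes lay 1.07-fold above the next class, and Rora in HF-PBS APCs 1.06-fold above. Thrb stood further apart, 7.83-fold above the next class in HF-PBS and 4.62-fold in HF-HHT.

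**Figure D1:**
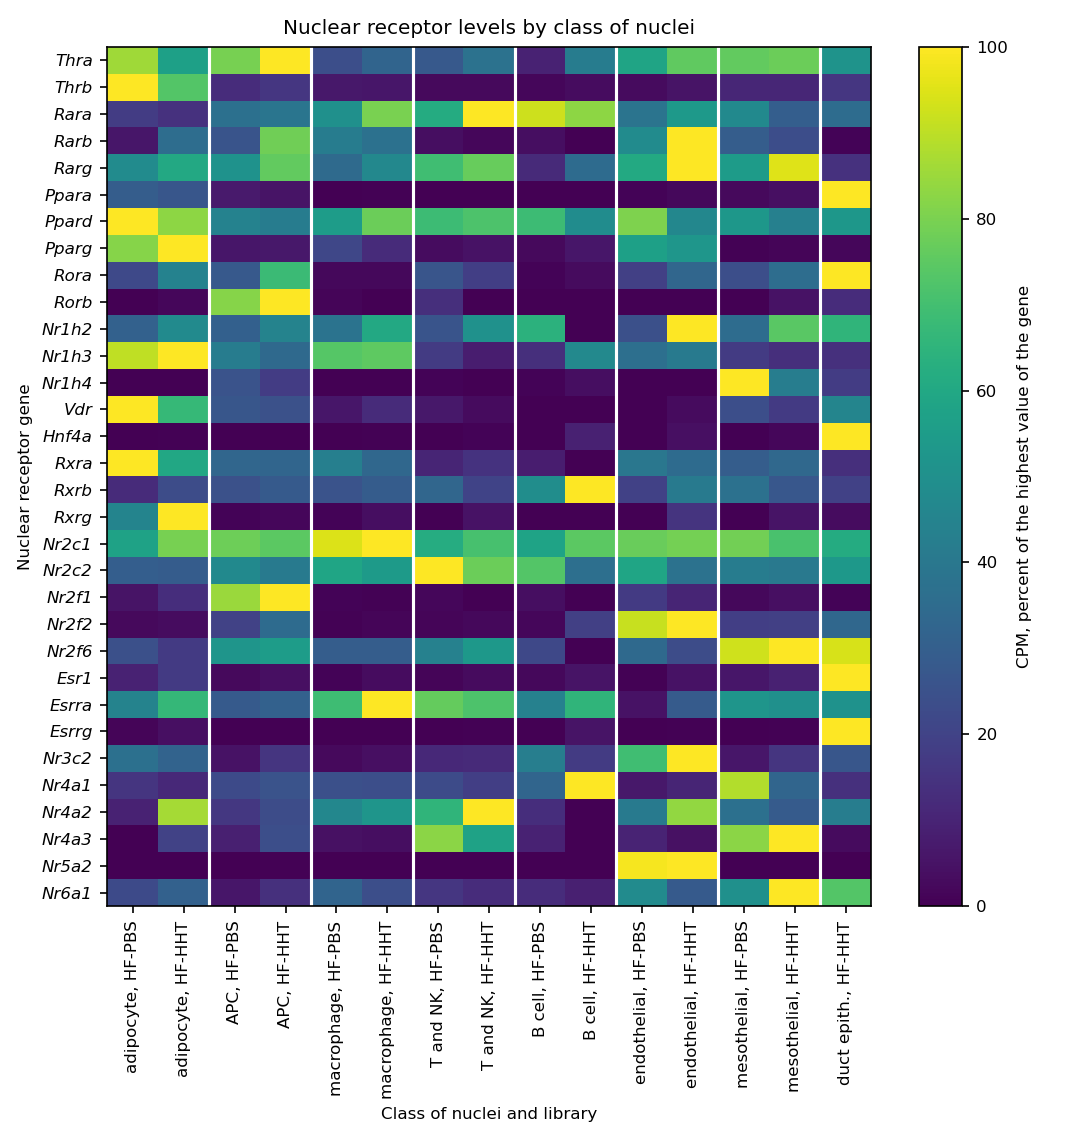
Heat map of receptor levels, with 1 row per gene (receptors with at least 50 UMIs) and 1 column per class and library. Color gives CPM as a percentage of the highest value of that gene, so rows cannot be compared with each other. Thrb and Vdr are brightest in adipocytes, Nr2f1 and Rorb in APCs, Nr5a2 in endothelial nuclei, and Esr1, Esrrg, Hnf4a, Ppara and Rora in the duct epithelium-like cluster.

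Across the 7 classes, 162 ratios of HF-HHT to HF-PBS were measured, of which 53 were higher and 13 lower by at least 1.5-fold. In adipocytes 10 of 28 measured receptors were higher and 2 lower, beside 35.8% and 12.1% of all 12546 genes. In APCs 8 of 28 were higher and 0 lower, beside 23.0% and 8.1% of 12191 genes. In macrophages 8 of 27 were higher and 1 lower, beside 25.9% and 8.3% of 14374 genes. In T and NK cells 5 of 20 were higher and 2 lower, beside 21.2% and 7.98% of all genes. In B cells 6 of 13 were higher and 2 lower, beside 27.3% and 21.3%. In endothelial nuclei 8 of 20 were higher and 3 lower, beside 22.8% and 10.2%. In mesothelial nuclei 8 of 26 were higher and 3 lower, beside 23.8% and 13.3%. The shares that were higher lay close to those of all genes in adipocytes, APCs, macrophages and T and NK cells. The median log2 ratio of all genes was itself above 0, at 0.32 in adipocytes, 0.17 in APCs, 0.16 in macrophages and 0.06 to 0.12 in the other classes, against receptor medians of 0.39, 0.21 and 0.18 in the first 3. Scaling by trimmed mean of M-values (TMM) lowered every log2 ratio by 0.20 in adipocytes, 0.19 in APCs, 0.20 in macrophages, 0.15 in T and NK cells and 0.40 in B cells. The split of higher to lower receptors then became 9 to 6, 8 to 2, 5 to 2, 2 to 4 and 6 to 4 in these 5 classes. TMM moved the ratios of all genes by the same amounts. The shares of all genes were not computed under it, so these splits have no background beside them.

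**Figure D2:**
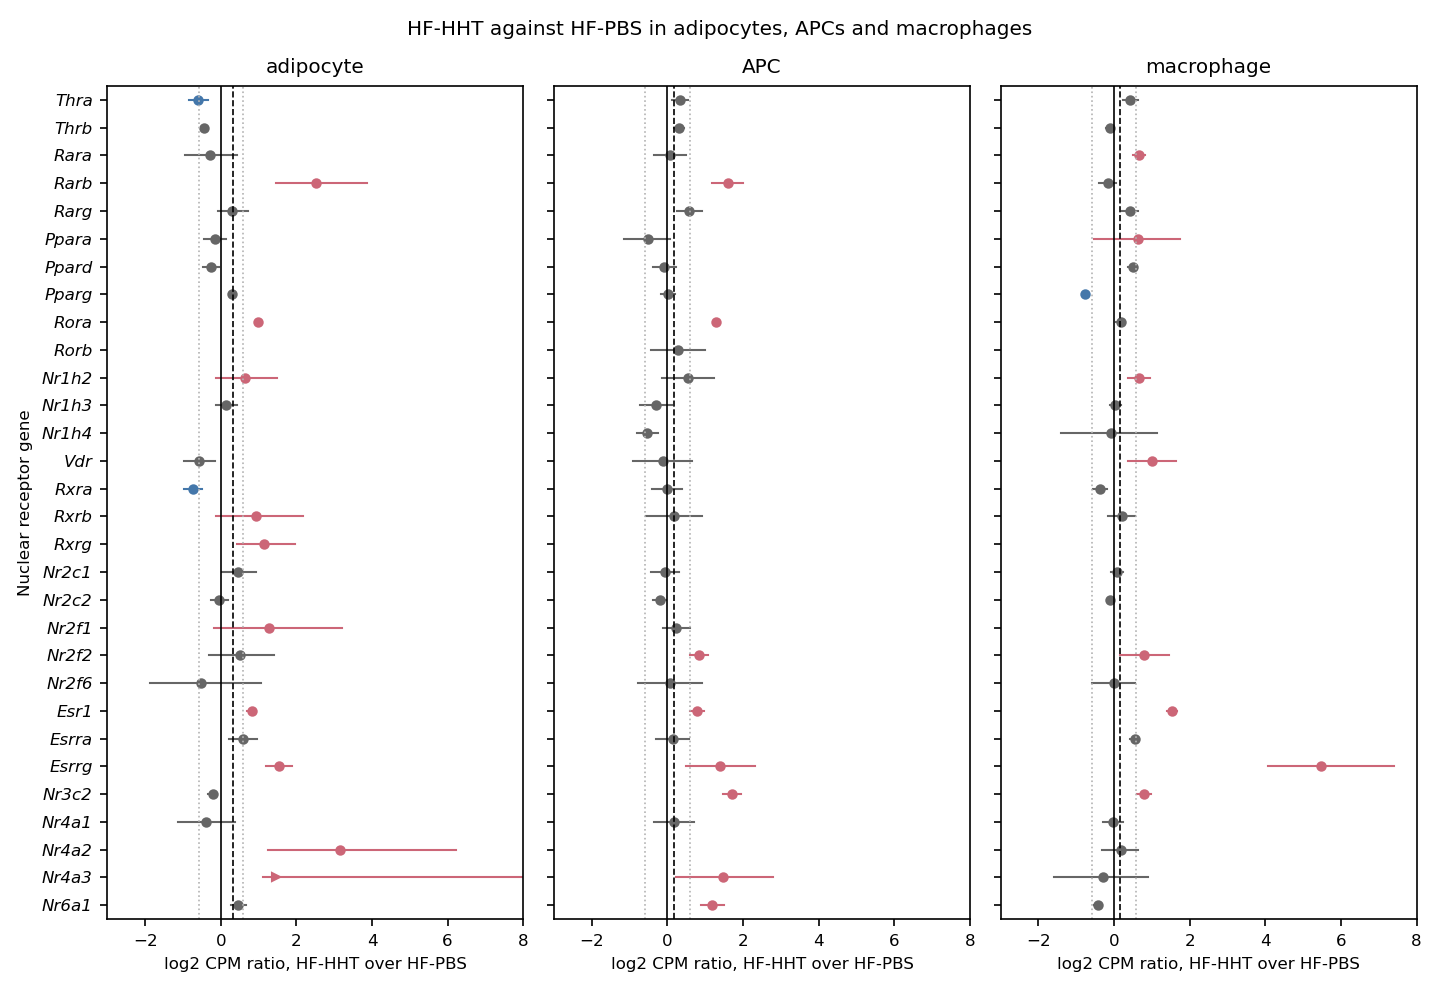
log2 ratio of CPM, HF-HHT over HF-PBS, for each measured receptor in adipocytes, APCs and macrophages. Points are ratios of 1 library to 1 library with exact 95% intervals, red for at least 1.5-fold higher, blue for at least 1.5-fold lower and gray for neither, a triangle marks a lower bound, dotted lines mark 1.5-fold and the dashed line is the median of all genes (0.32, 0.17 and 0.16). Esrrg in macrophages lies farthest right, at 5.48, and Pparg is the 1 receptor below the dotted line in macrophages, at -0.78.

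The thyroid hormone receptors are encoded by Thra and Thrb. Thrb was a gene of adipocytes, at 1824 and 1334 CPM, and its log2 ratio there was -0.45 (-0.51 to -0.40). In APCs it lay at 233 and 289 CPM, in mesothelial nuclei at 193 and 196 CPM and in macrophages at 118 and 109 CPM. Its 47.2 and 49.7 CPM in T and NK cells were of the size that free RNA (235 and 354 CPM) could supply, and its endothelial ratio of 0.94 (51.3 to 98.5 CPM) became 1.75 after subtraction of free RNA. The adipocyte level of Thra was 94.7 and 62.6 CPM, a log2 ratio of -0.60 (-0.84 to -0.35). In the other 5 classes where it was measured its ratio lay between 0.03 and 0.44. Both thyroid hormone receptors were thus below 0 in adipocytes, where the median gene was at 0.32.

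The retinoic acid receptors were encoded by Rara, Rarb and Rarg. Rarb had 7 UMIs in 5 of the 146 HF-PBS adipocyte nuclei and 214 UMIs in 118 of the 842 HF-HHT adipocyte nuclei, or 3.73 and 21.5 CPM, a log2 ratio of 2.53 (1.46 to 3.86). In APCs Rarb went from 15.6 to 46.9 CPM, a log2 ratio of 1.59 (1.18 to 2.01), and in the 2 finer APC clusters with at least 40 nuclei in each library it was 1.72 and 1.76. These clusters held 585 and 139 of the 756 HF-PBS APC nuclei and 394 and 145 of the 674 HF-HHT ones, and the rest were not analysed on their own. In endothelial nuclei it went from 29.0 to 59.9 CPM (1.05, 0.16 to 2.04). In macrophages its levels of 25.2 and 22.4 CPM hid opposite ratios, given below. Rara was highest in lymphoid nuclei and was 42.9 and 69.6 CPM in T and NK cells (0.70, 0.18 to 1.22). In macrophages Rara was 35.0 and 55.5 CPM (0.66, 0.51 to 0.82), and within finer clusters that ratio was 0.22. Rarg was above 0 in all 6 classes where it was measured, between 0.15 and 0.79, and reached 1.5-fold in endothelial (40.1 to 66.0 CPM) and mesothelial nuclei (36.3 to 62.7 CPM). Its macrophage ratio of 0.43 was -0.1 within finer clusters.

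The fatty acid receptors are encoded by Ppara, the activator of fatty acid oxidation, Ppard, which is broadly expressed, and Pparg, the adipocyte master regulator. Pparg was highest in adipocytes, at 1873 and 2284 CPM, with a UMI in 140 of 146 and 833 of 842 nuclei. The log2 ratio of 0.29 (0.23 to 0.34) lay beside the median of all adipocyte genes. Endothelial nuclei came next, at 1300 and 1198 CPM. In macrophages Pparg was 487 and 285 CPM, a log2 ratio of -0.78 (-0.83 to -0.72). In APCs it was 142 and 144 CPM. In T and NK cells (72.9 and 112 CPM), B cells (61.5 and 139 CPM) and mesothelial nuclei (17.8 and 34.0 CPM) it was counted as higher, but free RNA held 486 and 694 CPM of Pparg, and no level was left in 1 or both libraries after subtraction. Ppard was 119 and 98.6 CPM in adipocytes and 65.4 and 91.9 CPM in macrophages, and it was lower in endothelial nuclei, at 95.9 and 54.8 CPM (-0.81, -1.41 to -0.19). Ppara was 68.1 and 61.2 CPM in adipocytes, where the ratio of -0.15 had an interval of -0.43 to 0.13, and 17.0 and 11.9 CPM in APCs. In macrophages it was near absent, with 17 and 13 UMIs.

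**Figure D3:**
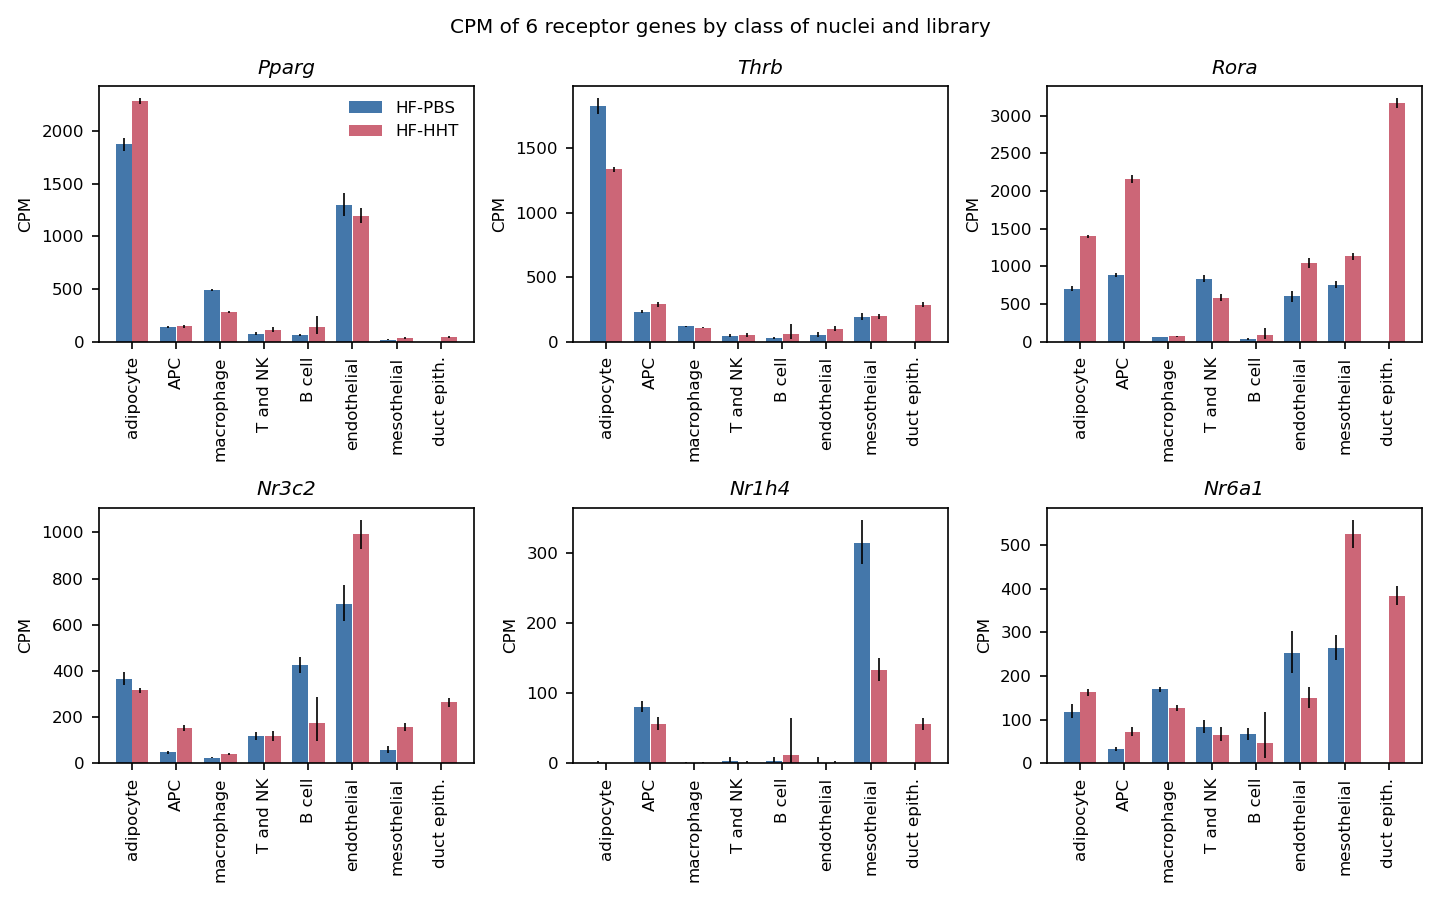
CPM of Pparg, Thrb, Rora, Nr3c2, Nr1h4 and Nr6a1 in each class of nuclei, HF-PBS in blue and HF-HHT in red, with exact 95% Poisson intervals of the counts, which cover counting error only. The duct epithelium-like cluster has an HF-HHT bar only. Thrb stands out in adipocytes, Nr3c2 in endothelial nuclei (689 and 991 CPM) and Nr1h4 in mesothelial nuclei (315 and 133 CPM).

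Macrophage Pparg depended on which macrophages were counted. Cluster 1, with Tm4sf19 and Atp6v0d2 among its leading genes, held 50.4% of HF-PBS and 29.0% of HF-HHT macrophage nuclei. Pparg was 656 and 627 CPM in cluster 1, a log2 ratio of -0.07 (-0.13 to 0.00). In cluster 0, led by F13a1 and Cd163, it was 239 and 121 CPM, a ratio of -0.98 (-1.10 to -0.87). Within finer clusters the combined ratio was -0.30, and the 5 finer clusters with at least 40 nuclei in each library ran from -1.57 to 0.07. Gpnmb, a gene of lipid-laden macrophages, was highest in finer clusters 1 (1050 and 338 CPM) and 4 (4340 and 2650 CPM), where Pparg was 679 and 610.0 CPM and 603 and 631 CPM. HF-HHT macrophages thus held a smaller share of the Pparg-rich nuclei of cluster 1 and a lower Pparg level in cluster 0. Rarb had opposite ratios in the clusters, at 38.1 and 19.1 CPM in cluster 0 (-1.0, -1.30 to -0.71) and 16.4 and 29.4 CPM in cluster 1 (0.84, 0.49 to 1.19). Among the finer clusters it was below 0 in finer cluster 2 (71.8 and 19.2 CPM, -1.91). It was above 0 in finer clusters 0 (3.31 and 11.6 CPM, 1.80), 1 (1.16) and 4 (0.54). Nr3c2 was above 0 in both cluster 0 and cluster 1, at 0.44 and 1.02, but ran from -1.40 to 3.48 over the finer clusters. Esr1 was above 0 in each of them, from 0.63 to 2.08.

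**Figure D4:**
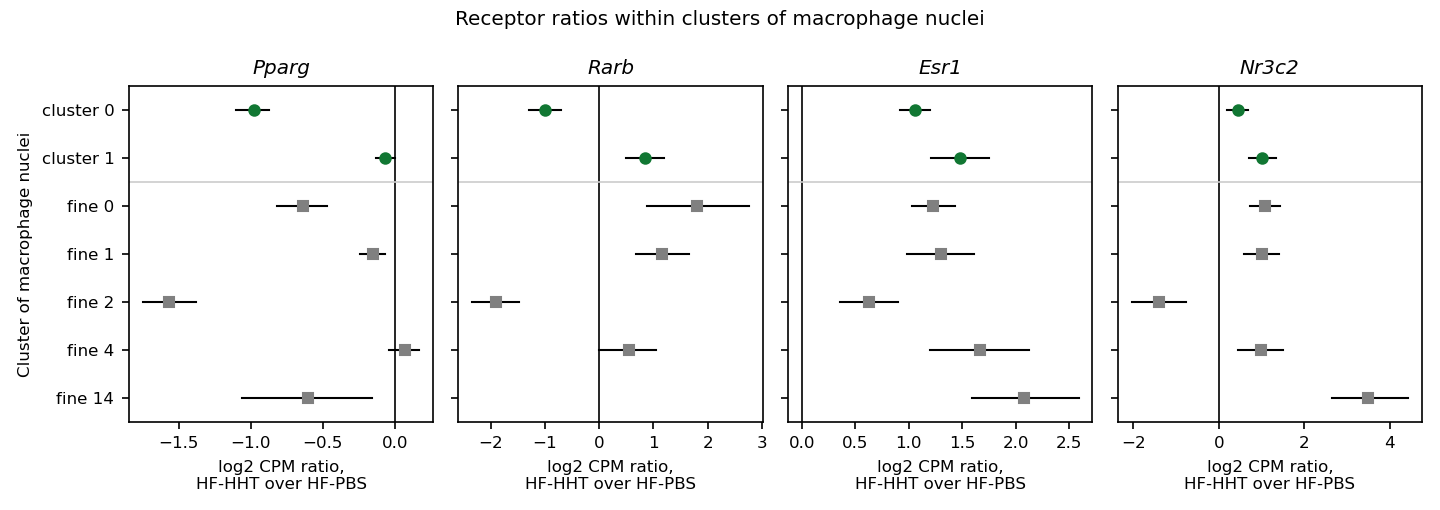
log2 CPM ratio of Pparg, Rarb, Esr1 and Nr3c2, HF-HHT over HF-PBS, in macrophage clusters 0 and 1 (green circles) and in 5 finer clusters of the same nuclei (gray squares), with exact 95% intervals. The horizontal scales differ between panels. Finer cluster 2 has the lowest ratio of each of the 4 receptors, with -1.57 for Pparg and -1.91 for Rarb.

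Oxysterols act through the LXRs, Nr1h2 and Nr1h3, bile acids through the farnesoid X receptor, Nr1h4, and active vitamin D through Vdr. Nr1h3 was 66.5 and 73.6 CPM in adipocytes and 54.3 and 55.3 CPM in macrophages, with ratios of 0.15 (-0.13 to 0.43) and 0.03 (-0.12 to 0.17). Nr1h2, a short gene with few UMIs, was above 0 in all 6 classes where it was measured, from 0.55 to 2.04, and the interval lay above 0 in 3 of them. It went from 10.5 to 16.5 CPM in macrophages (0.66, 0.37 to 0.95). In B cells it had 25 and 0 UMIs, and 3 HF-HHT UMIs would have been 34.6 CPM, so no ratio was formed. Nr1h4 was a mesothelial gene, at 315 and 133 CPM, a log2 ratio of -1.24 (-1.48 to -1.01). Beside these values, the 8 markers of the mesothelial class went from 2817.8 to 5888.7 CPM summed and the 8 APC markers from 3531.7 to 3877.2 CPM, none at 0, and their part in the mesothelial ratios of Nr1h4, Nr3c2, Nr4a1 and Nr6a1 was not tested. Nr1h4 was also present in APCs at 80.7 and 55.9 CPM (-0.53, -0.81 to -0.26), and the finer APC cluster rich in Pi16 and Dpp4 held more of it (197 and 121 CPM) than the larger one (61.4 and 37.0 CPM). It was not detected in endothelial nuclei, with 0 UMIs in both libraries, where 3 UMIs would have been 6.69 and 3.05 CPM. Vdr was 33.5 and 22.5 CPM in adipocytes (-0.57, -0.98 to -0.15) and went from 2.05 to 4.11 CPM in macrophages (1.01, 0.37 to 1.64), on 44 UMIs in each library.

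The ROR genes encode receptors that bind DNA as monomers, and Rora was higher in 4 of the 7 classes, namely APCs, adipocytes, endothelial nuclei and B cells. The B cell ratio of 1.39 rested on 8 HF-HHT UMIs, and no level was left in either library after subtraction of free RNA. In APCs Rora was 881 and 2155 CPM, a log2 ratio of 1.29 (1.23 to 1.35). In adipocytes it was 705 and 1398 CPM (0.99, 0.91 to 1.07) and in endothelial nuclei 602 and 1043 CPM (0.79, 0.60 to 0.99). In mesothelial nuclei it stayed within 1.5-fold, at 758 and 1132 CPM (0.58, 0.47 to 0.69). T and NK cells went the other way, at 833 and 582 CPM, a ratio of -0.52 (-0.66 to -0.37). Rora was also present in free RNA at 197 and 561 CPM, and subtraction left the APC and adipocyte ratios at 1.28 and 0.99 but took the macrophage ratio from 0.18 (63.2 and 71.4 CPM) to -0.41. In the larger of the 2 finer APC clusters the Rora ratio was 1.45 (862 and 2360 CPM) and in the Pi16 and Dpp4 cluster 0.65 (954 and 1500.0 CPM). Within the lymphoid class, the finer cluster with Themis and Bcl11b held 1080 and 864 CPM, and the one with Klrk1 and Ncr1 held 322 and 172 CPM. Rorb was near restricted to APCs, with 44 and 29 UMIs in 15 and 11 nuclei. The Pi16 and Dpp4 cluster held 39 and 19 of these UMIs, at 52.5 and 35.2 CPM, against 1.19 and 5.61 CPM in the larger one.

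The RXR genes encode the shared partners. Rxra was highest in adipocytes, at 95.8 and 57.5 CPM, a log2 ratio of -0.74 (-0.98 to -0.49). In macrophages it was 41.5 and 31.9 CPM (-0.38, -0.56 to -0.19). Rxrg went the opposite way in adipocytes, from 17 UMIs and 9.05 CPM to 200 UMIs and 20.1 CPM (1.15, with a lower bound of 0.44), and it had at most 8 UMIs in any other of the 7 classes. Rxrb was 8.79 and 10.1 CPM in macrophages. It was highest in B cells, at 17.0 and 34.6 CPM (1.03, -1.35 to 2.75), on 24 and 3 UMIs. Its adipocyte ratio of 0.92 rested on 8 and 80 UMIs with an interval of -0.13 to 2.18.

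The testicular receptors Nr2c1 and Nr2c2 and the COUP factors Nr2f1, Nr2f2 and Nr2f6 are orphan receptors. Nr2c1 was the most even receptor against treatment, with 0 of its 7 ratios past 1.5-fold and a range of -0.14 to 0.46. Nr2c2 was below 0 in all 7 classes, from -1.0 in B cells (277 and 139 CPM) to -0.04 in adipocytes (114 and 111 CPM), and its interval lay below 0 in 5 of them. In endothelial nuclei it was 223 and 143 CPM (-0.64, -1.02 to -0.25). Nr2f2, which sets venous and lymphatic identity, was 279 and 305 CPM in endothelial nuclei. The finer cluster with Prox1 and Flt4, genes of lymphatic endothelium, held 415 and 548 CPM of it, and the one with Flt1 and Cyyr1, genes of blood endothelium, held 95.3 and 157 CPM. In APCs Nr2f2 was 59.7 and 106 CPM, a ratio of 0.83 (0.60 to 1.07). Within finer clusters that ratio was 0.56, under 1.5-fold, and in the larger finer APC cluster it was 0.36 (64.0 and 81.9 CPM). Nr2f1 was an APC gene, at 33.7 and 39.7 CPM (0.23, -0.12 to 0.59). Nr2f6 stayed between 2.21 and 13.1 CPM in the 4 classes where it was measured, with ratios of -0.53 to 0.11.

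Nr3c2 encodes the mineralocorticoid receptor, which binds aldosterone and glucocorticoids. It was highest in endothelial nuclei, at 689 and 991 CPM, a log2 ratio of 0.52 (0.34 to 0.71). The Prox1 and Flt4 cluster held 1050 and 1830 CPM, and the Flt1 and Cyyr1 cluster 196 and 482 CPM, with ratios of 0.80 and 1.30. In APCs Nr3c2 went from 46.8 to 152 CPM (1.70, 1.47 to 1.94) and in mesothelial nuclei from 58.1 to 155 CPM (1.41, 1.03 to 1.80). In the 2 finer APC clusters it was 1.55 and 2.63. In macrophages it went from 23.8 to 41.3 CPM (0.80, 0.61 to 0.98). Adipocytes, at 366 and 316 CPM, were slightly below 0 (-0.21, -0.33 to -0.09). The 48 HF-HHT B cell nuclei held 173 CPM against 424 CPM in HF-PBS (-1.29, -2.14 to -0.56). The markers of the B cell class also went from 9659.3 to 5206.2 CPM summed in these nuclei. The part of that shift in the B cell ratios of Nr3c2 and Nr2c2 was not tested.

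Esr1, the estrogen receptor α gene, was higher in all 7 classes, with log2 ratios from 0.60 to 2.97. It was 358 and 630.1 CPM in adipocytes (0.82, 0.70 to 0.93), 90.9 and 157 CPM in APCs (0.79), 42.6 and 123 CPM in macrophages (1.54), 45.0 and 114 CPM in T and NK cells (1.34), 79.9 and 196 CPM in B cells (1.30), 22.3 and 175 CPM in endothelial nuclei (2.97, on 10 and 172 UMIs) and 224 and 339 CPM in mesothelial nuclei (0.60). The B cell value rested on 17 HF-HHT UMIs in 6 nuclei and was 0.17 without the nucleus richest in them. The free RNA level of Esr1 moved in the same direction, from 52.7 to 363 CPM, and the duct epithelium-like cluster held 3683 CPM. After subtraction of free RNA at its bound, which assumes the same mix in every droplet, the ratios ran from 0.50 to 3.15. The duct epithelium markers, 8 genes, moved with it: their summed level went from 3.4 to 35.3 CPM in macrophages, 45.2 to 123.4 CPM in APCs, 5.7 to 77.5 CPM in T and NK cells, 7.8 to 507.9 CPM in B cells, 4.5 to 81.2 CPM in endothelial nuclei and 297.2 to 387.6 CPM in mesothelial nuclei, but from 261.8 to 149.6 CPM in adipocytes. In free RNA their sum was 50.4 and 594 CPM. Between 2 and 6 of the 8 markers were at 0 in the HF-PBS classes, and at most 1 in the HF-HHT classes. The part of duct epithelium RNA in the Esr1 ratios beyond that subtraction was not tested.

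The estrogen-related receptors Esrra, Esrrb and Esrrg have no known natural hormone and act on mitochondrial genes. Esrrg was higher in all 5 classes where it was measured. In adipocytes it went from 39.4 to 114 CPM, a log2 ratio of 1.53 (1.19 to 1.89), and 1.47 after subtraction. In macrophages it had 4 and 89 UMIs (0.186 and 8.31 CPM, ratio 5.48), but free RNA went from 2.67 to 149 CPM and no macrophage level was left after subtraction. The same was true of APCs (3.71 and 9.74 CPM) and endothelial nuclei (4.46 and 20.3 CPM), and the mesothelial ratio went from 3.28 to 1.53. The duct epithelium-like cluster held 2769 CPM, and Esrrg was among its 10 leading genes. Esrra was 60.7 and 88.2 CPM in macrophages (0.54, 0.42 to 0.66) and 39.4 and 58.7 CPM in adipocytes (0.58, 0.23 to 0.95), and its endothelial ratio of 2.51 rested on 2 HF-PBS UMIs.

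**Figure D5:**
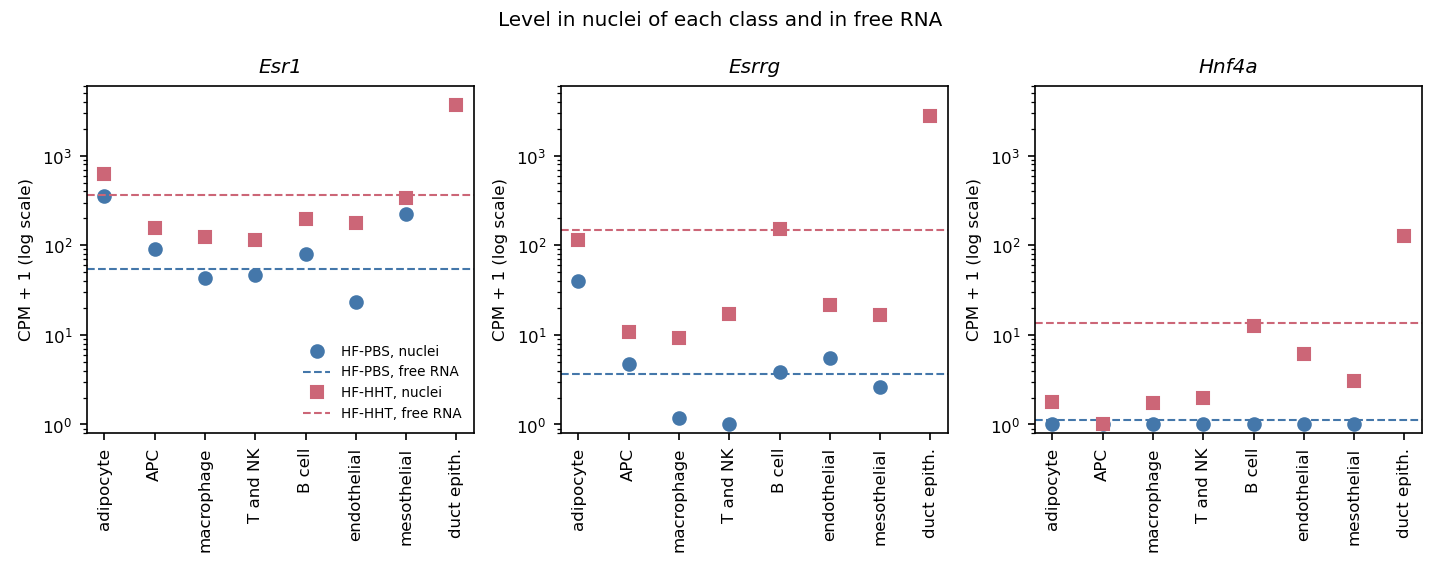
Levels of Esr1, Esrrg and Hnf4a as CPM + 1 on a log scale, in each class of nuclei (circles for HF-PBS, squares for HF-HHT) and in free RNA (dashed lines in the same colors). Each of the 3 has its highest level in the HF-HHT duct epithelium-like cluster (3683, 2769 and 126 CPM), and its HF-HHT free RNA line (363, 149 and 12.7 CPM) lies above its HF-PBS line.

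Beside Esr1 and Esrrg, the duct epithelium-like nuclei held 3167 CPM of Rora, 230 CPM of Ppara and 126 CPM of Hnf4a, each above its level in the 7 other HF-HHT classes. They also held 384 CPM of Nr6a1, below the 524 CPM of mesothelial nuclei, and 263 CPM of Nr3c2, below the 991 CPM of endothelial nuclei. Hnf4a is a receptor known from liver, kidney and gut epithelium. It had 380 UMIs in 223 of these 685 nuclei and at most 8 UMIs in any other HF-HHT class, and 0 UMIs in each of the 7 HF-PBS classes. Pparg was low there, at 41.5 CPM, below the 694 CPM of free RNA. Rarb, Rxrg, Nr2f1 and Nr4a3 had 1 or 2 UMIs each.

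The NR4A receptors, Nr4a1, Nr4a2 and Nr4a3, are immediate-early genes that act without a known ligand. Nr4a1 was a mesothelial gene in HF-PBS, at 61.4 CPM, and 22.5 CPM in HF-HHT, a log2 ratio of -1.45 (-2.03 to -0.89). In macrophages it was 17.0 and 16.6 CPM as a class, and -0.68 within finer clusters. Nr4a2 had 2 and 94 UMIs in adipocytes (1.06 and 9.45 CPM, 3.15, 1.26 to 6.22), while its macrophage ratio was 0.17 (5.07 and 5.70 CPM). Nr4a3 had 0 and 44 UMIs in adipocytes, at least 2.77-fold higher when the HF-PBS sum was set at 3 UMIs. In APCs Nr4a3 had 10 and 15 UMIs (1.47, 0.22 to 2.79), and naming nuclei one by one from their markers turned this to -0.06.

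Nr5a2 and Nr6a1 complete the list. Nr5a2, known from liver and pancreas, was an endothelial gene here, with 27 and 60 UMIs (60.2 and 60.9 CPM) and at most 3 UMIs in any other class. In HF-PBS 26 of its 27 endothelial UMIs lay in the Prox1 and Flt4 cluster, and in HF-HHT 27 lay there and 33 in the Flt1 and Cyyr1 cluster. Nr6a1, the germ cell nuclear factor, was highest in mesothelial nuclei, at 264 and 524 CPM, a log2 ratio of 0.99 (0.81 to 1.17). In APCs it went from 31.8 to 72.2 CPM (1.18, 0.88 to 1.49), and in endothelial nuclei from 252 to 149 CPM (-0.76, -1.12 to -0.39). In macrophages it was 169 and 126 CPM (-0.42, -0.52 to -0.33).

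The remaining 5 receptors were measured in no class. Nr1i3, the constitutive androstane receptor of liver, had 5 and 1 UMIs over the 7 classes, and Esr2, estrogen receptor β, had 3 and 22. Esrrb had 5 and 17 UMIs, Pgr, the progesterone receptor, 0 and 4, and Hnf4a 0 and 27 outside the duct epithelium-like cluster.

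The 8 companion lists hold 95 genes and cover the partners, ligand supply and target genes of the receptors. In adipocytes 7 of 17 measured PPAR target genes were higher and 2 lower, beside 35.8% and 12.1% of all genes. Pck1, the glyceroneogenic enzyme, went from 176 to 641 CPM and Ehhadh, a peroxisomal oxidation enzyme, from 84.6 to 326 CPM, while Pdk4, which restrains pyruvate oxidation, went from 397 to 209 CPM (-0.92). Of 10 LXR target genes 3 were higher, among them Mylip (1.92) and Scd1 (1.0), and 2 lower, among them Lpcat3 at 288 and 104 CPM (-1.47). Of 6 genes of retinoid handling 3 were higher and 2 lower, and Aldh1a1, which makes retinoic acid, was 3360 and 887 CPM (-1.92, -1.97 to -1.88). Of 6 thyroid hormone genes Me1 was higher (0.60) and Hr, a corepressor induced by the hormone, lower at 95.8 and 25.1 CPM (-1.93). The coactivators Ppargc1a (4.26 and 16.8 CPM) and Ppargc1b (31.9 and 89.3 CPM) were among 3 of 12 that were higher, and Ncoa1 was the 1 that was lower (-0.62). Of 9 corepressors 3 were higher, among them Sin3a (0.93), and 1 was lower. Of 12 immediate-early genes 2 were higher and 5 lower, with Dusp1 at 68.1 and 11.2 CPM (-2.61) and Fos at 35.1 and 12 CPM (-1.55). None of 5 sterol and steroid enzymes passed 1.5-fold, and Hsd11b1, which regenerates glucocorticoids, was at 0.58.

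In APCs 7 of 16 PPAR target genes were higher and 2 lower, beside 23.0% and 8.1% of all genes. Pck1 went from 2.15 to 24.9 CPM (3.54) and Pnpla2, the triglyceride lipase, from 7.22 to 33.6 CPM (2.22), while Pdk4 (68.3 and 31.4 CPM, -1.12) was lower as in adipocytes. Of 10 LXR target genes 4 were higher, with Mylip at 0.87, and 0 lower. Of 12 coactivators 2 were higher, Ppargc1a from 8 to 79 UMIs (4.19) and Ncoa1 at 0.63, and of 9 corepressors Gps2 was higher (0.77). Aldh1a3 was higher (0.76) and Aldh1a1 lower (1920 and 1080 CPM, -0.83) among 7 retinoid genes, and 1 of 5 thyroid hormone genes was higher and 0 lower. Cyp27a1 (1.23) and Hsd11b1 (0.96) were the 2 of 6 sterol and steroid enzymes that were higher. The 8 adipocyte markers, none of them at 0, also went from 53.4 to 224.8 CPM summed in APCs and from 578.3 to 2576.5 CPM in free RNA. Free RNA held 20.6 and 309 CPM of Pck1, 62.4 and 217 CPM of Pnpla2 and 4.34 and 22.3 CPM of Ppargc1a. If of the same mix in every droplet, it could supply at most 8.73% of the UMIs of HF-HHT APCs. The part of adipocyte and free RNA in the ratios of these 3 genes was not tested. Of 13 immediate-early genes 1, Jun (2.01), was higher and 5 were lower, among them Egr2 (-1.60) and Btg2 (-1.09).

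In macrophages 8 of 17 PPAR target genes were higher and 1 lower, beside 25.9% and 8.3% of all genes. Cd36, the fatty acid uptake receptor, was the lower one, at 3460 and 1880 CPM (-0.88), and Acsl1, which activates fatty acids, went from 69.1 to 320.0 CPM (2.21). The adipocyte markers went from 53.4 to 172.4 CPM summed in macrophages, and their part in the higher target genes was not tested. Of 6 thyroid hormone genes 2 were higher and 3 lower, among them Klf9 at 113 and 48.0 CPM (-1.23), and of 9 retinoid genes 1 was higher and 3 lower, among them Dhrs3 at 536 and 327 CPM (-0.71). Of 10 LXR target genes 2 were higher, Scd1 (1.10) and Scd2 (0.86). Scd1 was 9.82 and 21.0 CPM in macrophages, beside 83.5 and 247 CPM in free RNA. Scd2 was 3.77 and 6.82 CPM in macrophages, beside 18.0 and 77.7 CPM in free RNA. The part of free RNA in these 2 ratios was not tested. Abca1 (-0.13) and Abcg1 (-0.18), the cholesterol exporters, stayed within 1.5-fold. Of 12 coactivators Ppargc1b was higher (0.60) and Ncoa1 (-0.60) and Ppargc1a (-0.82) lower, and of 9 corepressors 0 passed 1.5-fold. Cyp7b1 (1.11) and Hsd11b1 (2.50, on 17 and 48 UMIs) were the 2 of 6 sterol and steroid enzymes that were higher. Of 14 immediate-early genes 2 were higher and 4 lower, with Dusp1 at 141 and 36.3 CPM (-1.96) and Jun at 25.3 and 41.9 CPM (0.73).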

How the data were processed

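snRNA-seq was run on epididymal WAT of HF-PBS and HF-HHT mice, 1 library per condition, so no group had replicates. The authors aligned reads to the mouse genome (mm10) with Cell Ranger 5.0.0 (the matrix header names version 4) and deposited raw UMI counts per gene for every barcode, without normalization. The sources used here do not say whether intronic reads entered the counts.

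From these counts, nuclei were called against free RNA (barcodes ranked 45000 to 90000, false discovery rate 0.01, at least 500 UMIs), and 479 and 463 likely doublets were removed with Scrublet in scanpy 1.11.5 (6.19% and 6.08% of called nuclei, a rate set from the number of called nuclei, as the automatic limit took 1 and 271). The limits of the study were then set: over 400 genes, less than the 95th percentile of UMIs and of genes, and mitochondrial UMIs under 0.5%. The study removed doublets with another tool. Clustering used Seurat 5.3.0 in R 4.3.3 (2000 features, 30 dimensions, 14 clusters), with the receptors and companion genes left out of the features. Classes were named from 16 marker lists, a marker being found where at least 10% of nuclei held it, and authors' labels per nucleus were not used here. Finer clusters came from a resolution of 1.0.

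Class sums and intervals were computed with Python 3.11.15 and scipy 1.17.1. A gene at 0 in 1 library was set at 3 counts in it, and no ratio was formed where the other level lay at or under that floor. Free RNA was subtracted at its upper bound, set by the least abundant markers of other classes. That bound assumes the same mix of free RNA in every droplet. Examples from companion lists were drawn from the 2 highest and the 2 lowest ratios of each list, where a gene had 50 counts or more. Alternatives were TMM scaling (edgeR 4.0.16), median-of-ratios scaling, no count minimum, other calling, doublet and filter limits, naming per nucleus, ratios within finer clusters and omission of the richest nucleus. Coordinates are from GENCODE vM21 and RefSeq on GRCm38. Scripts were tested on simulated data. Receptors, lists and tests were chosen with earlier results of these data known. Some companion genes are counted in their lists but not reported here by name.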

Additional observations from a re-analysis of the deposited data

Results flagged for a closer look

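Log2 ratios of HF-HHT over HF-PBS went past 1.5-fold in opposite directions in different classes, with intervals that left out 0 in both directions, for 4 receptors. The differences between classes were not tested, since each class has 1 library per condition. Pparg was at -0.78 in macrophages and at 0.62 in T and NK cells, 1.17 in B cells and 0.93 in mesothelial nuclei, and in these last 3 no level was left after subtraction of free RNA in HF-PBS and 21.7, 22.2 and 0 CPM were left in HF-HHT. Nr3c2 was at 1.70 in APCs, 0.80 in macrophages and 1.41 in mesothelial nuclei and at -1.29 in B cells. In B cells the markers of the class itself went from 9659.3 to 5206.2 CPM summed. Nr4a1 was at 1.61 in B cells, on 6 HF-HHT UMIs, and at -1.45 in mesothelial nuclei. Nr6a1 was at 1.18 in APCs and 0.99 in mesothelial nuclei and at -0.76 in endothelial nuclei.

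In the free RNA of empty droplets, 3 receptors had a log2 ratio of HF-HHT over HF-PBS whose interval lay wholly above 2. Hnf4a was at 12.7 CPM in HF-HHT and 0.111 CPM in HF-PBS, Esr1 at 363 and 52.7 CPM, and Esrrg at 149 and 2.67 CPM. Erythroid markers, 6 genes, went from 22.5 to 1192.5 CPM summed in the same free RNA.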

How the results depend on the processing

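No paired analysis was possible because each condition has 1 library. With 1 library per condition, differences between mice, pools and capture runs cannot be told apart from treatment, and the class sums with the fewest UMIs, HF-HHT B cells (86627) and HF-PBS endothelial nuclei (448461), limit the precision most. Counts of receptors past 1.5-fold that moved by over 1.5 times are given by setting, with higher or lower named. Shares of all genes were computed in the main setting only, so these counts cannot be set against a background. TMM scaling gave 6 lower in adipocytes, 2 lower in APCs, 5 higher and 2 lower in macrophages, 2 higher and 4 lower in T and NK cells and 4 lower in B cells. Median-of-ratios scaling gave the same lower counts except 3 in macrophages, with 4 higher there and 2 higher in T and NK cells. Subtraction of free RNA gave 4 lower in adipocytes, 1 in APCs and 2 in macrophages, and turned Ppara in macrophages to -0.27. Ratios within finer clusters gave 1 lower in APCs and 2 in macrophages. With every barcode of at least 500 UMIs kept, 1 was lower in APCs and Rora in B cells was -0.26. Naming per nucleus gave 1 lower in APCs, 3 higher and 1 lower in T and NK cells and 5 higher in mesothelial nuclei, and turned Nr4a3 in APCs to -0.06 and Rara in mesothelial nuclei to 0.27. With no count minimum, 2 were lower in macrophages, 4 in T and NK cells and 5 in endothelial nuclei, and 12 higher in B cells. With doublets kept, 3 were higher in T and NK cells and 10 in B cells, and Pparg in T and NK cells was -0.28. Without an upper limit on UMIs and genes, 2 were lower in macrophages, Rora in B cells was -0.37 and Ppara in mesothelial nuclei -0.02. The adipocyte class then held 292 HF-PBS and 1172 HF-HHT nuclei, against 146 and 842 with that limit. Without the nucleus richest in the gene, 1 was lower in adipocytes, 2 in macrophages and 6 in B cells, 2 were higher in B cells, and Rora in B cells was -0.45. The cause was not tested. The limit of 5% mitochondrial UMIs moved no count by over 1.5 times, and the number of receptors with the same highest class in both libraries was 19 to 23 over the settings that ranked classes.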
